A study of Mus musculus with 4 samples.

Results

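Chemokines and their receptors were examined in brain endothelial cells of newborn mice. The genes were all those listed in the deposited count tables with a symbol beginning Ccl, Ccr, Cxcl, Cxcr or Ackr and a number, together with Cx3cl1, with one receptor gene left out. The rule went by symbol and not by level, but it was set with earlier results of these data known. They were 41 of the 21578 genes listed, made up of 25 ligand genes, 15 receptor genes and the pseudogene Ccl19-ps1. Vascular endothelial cells were purified by flow cytometry from C57BL/6 mice at postnatal day 0 (P0), and their RNA was sequenced in 2 libraries per genotype. Pd1fl/fl animals carry floxed alleles of Pd1 (Pdcd1), the gene of the inhibitory receptor PD-1, and served as controls. Pd1cKO-Tie2 animals carry the floxed Pd1 gene together with a Cre recombinase driven by the Tie2 promoter, which is active in endothelial cells and also in cells of the blood lineage. The comparison therefore addressed whether transcript levels in purified brain endothelial cells differed when Pd1 had been deleted from Tie2-expressing cells. No source used here says whether the libraries came from separate animals, so p-values measure the spread between these libraries only.

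Chemokines are small secreted proteins that guide migrating cells, and they are named CC, CXC or CX3C after the spacing of their first cysteines. They act through receptors that couple to inhibitory G proteins, while atypical receptors bind chemokines without that coupling and remove them. In the developing brain, inflammatory CC chemokines are made mainly by microglia and border macrophages, whereas endothelial and meningeal cells make Cxcl12, and Cx3cl1 on neurons and endothelium signals to the microglial receptor Cx3cr1.

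Library totals were 14359990 and 13715837 counts in Pd1fl/fl against 24147311 and 14157027 counts in Pd1cKO-Tie2, in the order replicate 1 and replicate 2, which is kept below. For Pdcd1 itself, 32 and 0 reads were counted in Pd1fl/fl, against 0 and 0 in Pd1cKO-Tie2, so the control libraries differed in it and the deletion could not be checked from its level. Levels are given as CPM, the counts divided by the library total in units of 1000000 reads, after TMM scaling, which sets the bulk of genes equal between libraries. The 10 endothelial markers, among them Pecam1 and Cdh5, summed to 10874 and 10084 CPM in Pd1fl/fl and to 12965 and 13874 CPM in Pd1cKO-Tie2. Each of the 10 was higher in both Pd1cKO-Tie2 libraries, against 17.7% of all 15909 genes tested. The 14 microglia and macrophage markers summed to 2340 and 2700 CPM against 876 and 2005 CPM. Of the 14, 8 were lower in both Pd1cKO-Tie2 libraries, against 18.1% of all tested genes. The 5 pan-leukocyte markers summed to 1181 and 1378 CPM against 762 and 951 CPM. Neutrophil markers set Pd1fl/fl replicate 1 apart, at 1092 CPM against 99.6 CPM in replicate 2 and 123 and 63.6 CPM in Pd1cKO-Tie2. Pericyte and smooth muscle markers summed to 5509 and 3562 CPM against 3669 and 3670 CPM, and neuron markers to 723 and 951 CPM against 822 and 635 CPM. The 6 astroglia markers summed to 832 and 813 CPM against 544 and 396 CPM, with 4 lower in both Pd1cKO-Tie2 libraries. The sorted cells thus carried endothelial transcripts throughout, with transcripts of leukocytes and of other cell types in every library.

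Chemokine and receptor reads made up 0.181% and 0.242% of the total in Pd1fl/fl against 0.103% and 0.147% in Pd1cKO-Tie2. Both Pd1cKO-Tie2 libraries lay below both Pd1fl/fl libraries in this share. On a scale of CPM per kilobase of exon, which allows genes to be compared, the highest mean level over the 4 libraries was that of Ccl3 at 409, followed by Ccl6 at 217, Ccl9 at 107, Ccl2 at 81.1, Ccl4 at 49.4, Cxcl12 at 31.1, Cx3cl1 at 16.6 and Ackr2 at 16. The first 5 of these are CC ligands of inflammatory cells, and Cxcl12, Cx3cl1 and Ackr2 were the most abundant of the rest. Receptors took a small part of the reads, between 7.07% and 10.7% of those assigned to the 41 genes.

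**Figure D1:**
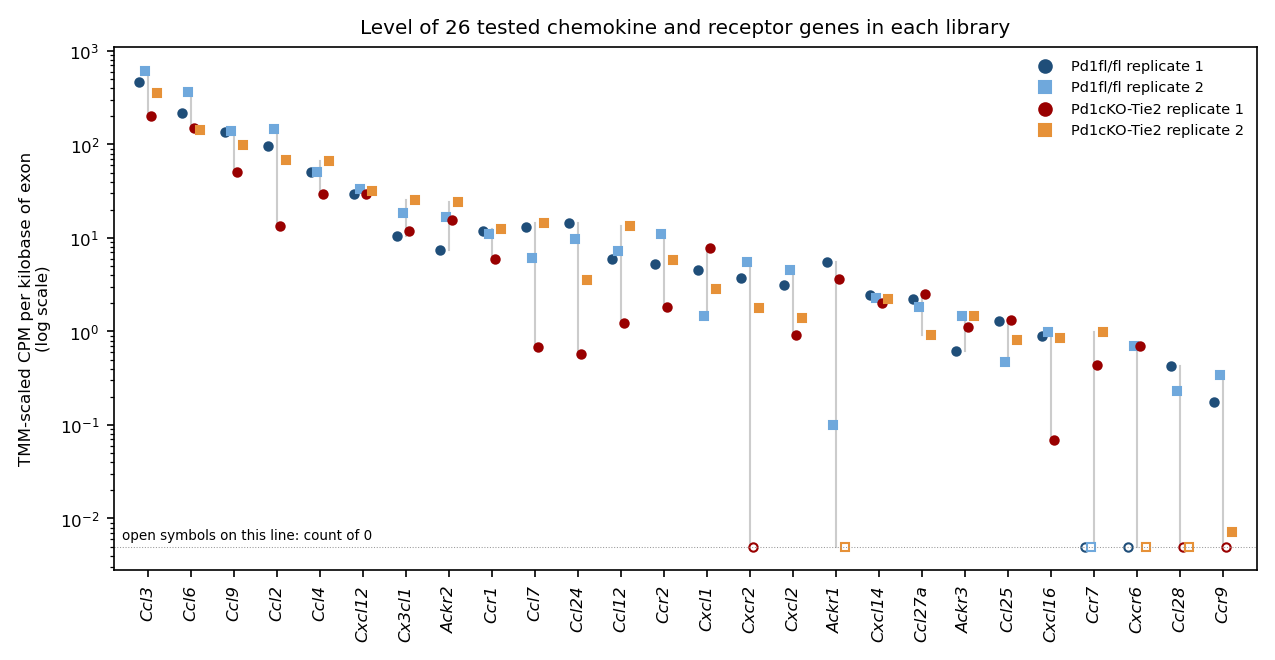
TMM-scaled CPM per kilobase of exon (log scale) of 26 of the 27 tested genes, ordered by mean level, with 1 symbol per library and open symbols for a count of 0. Ccl3, Ccl6 and Ccl9 led in level, and the Pd1cKO-Tie2 replicate 1 symbols lay far below the others at Ccl2, Ccl7, Ccl12, Ccl24 and Cxcl16.

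Of the 41 genes, 27 had enough counts to be tested with edgeR. By the criterion of the study's methods, fold changes of 2 or more at a p no higher than 0.05, 4 of the 27 changed, against 4.02% of all 15909 genes tested. Ccr7 alone was higher in Pd1cKO-Tie2, where 1.41% of all genes were called higher, and Ccl24, Ccl28 and Ccr9 were lower, where 2.61% of all genes were called lower. In Ccr7, Ccl28 and Ccr9 both libraries of one genotype held 3 counts or fewer, and 1.85% of all tested genes met the criterion with such counts. These 3 genes had enough counts to be tested only through the genotype in which they were high. Their lack of overlap between genotypes was therefore fixed by entry to the test. No gene of the family, and 0% of all genes, had an edgeR adjusted p under 0.05. Without adjustment 7 of the 27 had an edgeR p under 0.05, against 6.39% of all genes, and 6 of these were lower in Pd1cKO-Tie2, against 3.55% of all genes. Ccr7, Ccl28 and Ccr9 are among the 7, and Ccl28 and Ccr9 among the 6. Their entry to the test through the genotype in which they were high limits what these counts show. DESeq2 gave Ccl6 and Ccl3 an adjusted p under 0.05, both lower in Pd1cKO-Tie2, where 0.672% of 16976 genes passed in either direction and 0.465% were lower. DESeq2's unadjusted p was under 0.05 for 8 of the 41, against 6.33% of 21578 genes. The 8 include Ccr7, Ccl28 and Ccr9, and also Ccl11, which was counted in a single library.

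In 11 of the 27 tested genes both Pd1cKO-Tie2 libraries lay below both Pd1fl/fl libraries, against 18.1% of all tested genes, and in Ccr7 both lay above, against 17.7%. The libraries of the genotypes overlapped in the other 15. Ccl28 and Ccr9 are among the 11, and for these and Ccr7 the lack of overlap was fixed by entry to the test. The median log2 fold change was −0.36, with 8 genes above 0 and 19 below, while the median over all tested genes was −0.00. Inflammatory CC ligands had a median of −0.93 over 8 tested genes, 5 of them lower in both Pd1cKO-Tie2 libraries. Signalling CC receptors had a median of −1.08 over 5 tested genes and atypical receptors one of 0.31 over 3. These medians describe short lists, and members of a list share libraries.

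**Figure D2:**
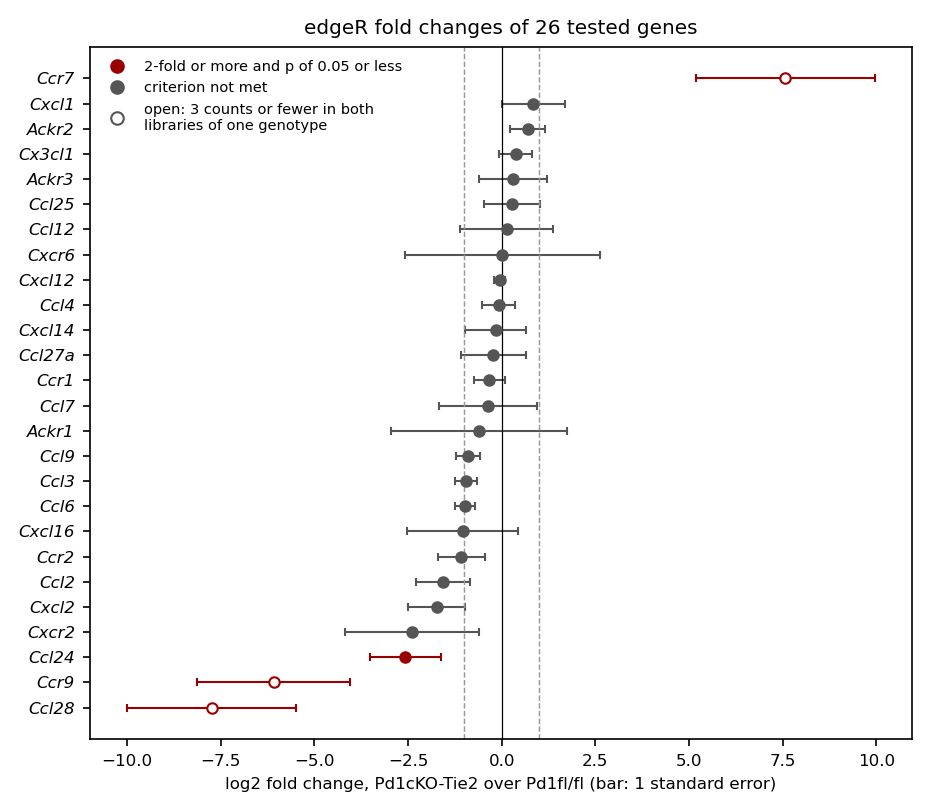
The log2 fold change of Pd1cKO-Tie2 over Pd1fl/fl from edgeR for 26 of the 27 tested genes, with bars of 1 standard error, dashed lines at a 2-fold change, and open symbols where both libraries of one genotype held 3 counts or fewer. Ccl24, Ccr9 and Ccl28 met the criterion on the lower side and Ccr7 on the higher side, and the bars of the latter 3 are wide.

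Ccl3 (MIP-1 alpha), a ligand of Ccr1, was the most abundant transcript per kilobase. Its levels were 357 and 470 CPM in Pd1fl/fl and 154 and 272 CPM in Pd1cKO-Tie2. Both control libraries were above both Pd1cKO-Tie2 libraries, with means of 414 ± 79.8 and 213 ± 83.3 CPM (SD, n = 2), a level 1.94-fold lower in Pd1cKO-Tie2. The log2 fold change was −0.96 (SE 0.30), with an edgeR p of 0.0204 and adjusted p of 0.735, and a DESeq2 adjusted p of 0.0404. Leaving out single libraries moved the log2 fold change of Ccl3 between −1.42 and −0.60. Fewer cells making a transcript and less of it per cell cannot be told apart in bulk samples such as these.

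Ccl6 and Ccl9, macrophage chemokines of rodents that signal through Ccr1, were likewise lower in both Pd1cKO-Tie2 libraries without reaching the criterion. Ccl6 had 387 and 646 CPM in Pd1fl/fl and 270 and 256 CPM in Pd1cKO-Tie2, 1.97-fold lower. Its Pd1cKO-Tie2 libraries were close together, below both control libraries, and the control libraries were further apart. The log2 fold change of Ccl6 was −0.98 (SE 0.26), with an edgeR p of 0.00968 and adjusted p of 0.735, and a DESeq2 adjusted p of 0.00765. It ran from −1.29 to −0.56 when single libraries were left out. Ccl9 had 418 and 428 CPM in Pd1fl/fl and 153 and 303 CPM in Pd1cKO-Tie2, 1.85-fold lower. Here the control libraries nearly coincided and the Pd1cKO-Tie2 libraries were spread below them. Its log2 fold change of −0.89 (SE 0.32) had an edgeR p of 0.0328, an adjusted p of 0.753 and a DESeq2 adjusted p of 0.0875. Without single libraries it ran from −1.46 to −0.47. With TMM scaling on all 4 libraries, edgeR gave none of the 3 a 2-fold change. Together Ccl3, Ccl6 and Ccl9 took 64.7% and 66.1% of the reads of the 41 genes in Pd1fl/fl against 55.6% and 54.6% in Pd1cKO-Tie2.

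Ccl9, Ccl6 and Ccl3 are neighbours on the minus strand of mouse chromosome 11, between Ccl5 and Ccl4, in a group of 5 genes spanning chr11:83525778-83664683. The 250 bases before each RefSeq start are shown because these 3 carry most of the chemokine reads and differed in the same direction, each in GRCm38.p6 and written 5′ to 3′ on the gene's strand. They lie at chr11:83649379-83649628 for Ccl3, chr11:83593088-83593337 for Ccl6 and chr11:83578637-83578886 for Ccl9. Capitals mark matches on either strand to the NF-kappaB consensus, AP-1 (TGANTCA), PU.1 (GAGGAAGT) or the TATA box (TATAAA).
Ccl3: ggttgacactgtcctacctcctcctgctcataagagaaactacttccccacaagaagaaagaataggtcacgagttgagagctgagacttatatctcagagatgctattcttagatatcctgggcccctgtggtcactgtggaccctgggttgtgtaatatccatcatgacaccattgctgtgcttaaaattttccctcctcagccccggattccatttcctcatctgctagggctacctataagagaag
Ccl6: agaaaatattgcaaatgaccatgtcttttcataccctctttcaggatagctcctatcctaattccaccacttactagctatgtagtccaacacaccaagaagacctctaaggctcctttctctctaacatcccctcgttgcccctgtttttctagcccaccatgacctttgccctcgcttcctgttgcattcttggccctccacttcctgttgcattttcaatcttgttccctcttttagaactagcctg
Ccl9: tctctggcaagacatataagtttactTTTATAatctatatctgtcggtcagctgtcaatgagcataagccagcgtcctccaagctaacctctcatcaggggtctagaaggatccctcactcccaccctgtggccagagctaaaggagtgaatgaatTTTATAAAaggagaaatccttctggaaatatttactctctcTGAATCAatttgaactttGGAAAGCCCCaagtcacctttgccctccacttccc
The window of Ccl9 held kappaB letters starting 35 bases and AP-1 letters starting 53 bases before the start, and 3 TATA matches, of which a pair overlap each other. Neither the Ccl3 nor the Ccl6 window held any of the 4 motifs. A promoter window was found for 29 of the 41 genes, and 9 of the 29 held kappaB letters, against 7.25% of 32851 mouse promoters, 4 held AP-1 against 6.75%, 8 held TATA against 12.4% and 1 held PU.1 against 2.44%. A gene with more than 1 window was counted once if any window matched, and a match of letters is not a measured binding site.

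The levels of Ccl3 and Ccl9 had the same order of libraries as the summed microglia and macrophage markers. Per 1000 reads of the 14 markers, Ccl3 had 153 and 174 reads in Pd1fl/fl against 176 and 136 in Pd1cKO-Tie2. Ccl9 had 179 and 159 against 175 and 151, and Ccl6 had 165 and 239 against 308 and 128. On this scale the genotypes overlapped in all 3 genes. Fitted with this scaling, the log2 fold changes were −0.07 for Ccl3, −0.05 for Ccl9 and 0.11 for Ccl6, while the median over all genes moved to 1.037. Another leukocyte scale gave a different picture for Ccl3. Per 1000 pan-leukocyte marker reads, Ccl3 had 303 and 341 in Pd1fl/fl against 202 and 286 in Pd1cKO-Tie2, lower in both. Ccl6 and Ccl9 overlapped between genotypes on the pan-leukocyte scale. The marker genes moved together with these ligands in part: Csf1r, the receptor that microglia need to survive, had 507 and 619 CPM against 234 and 434 CPM, and Cd163 of border macrophages was at 0 in Pd1fl/fl replicate 2 and Pd1cKO-Tie2 replicate 1, as was Lyve1 in Pd1fl/fl replicate 2. Whether the marker cells were the source of the ligand reads was not tested. Over all 27 tested genes, the microglia and macrophage scale placed 6 lower in both Pd1cKO-Tie2 libraries, against 3.53% of all tested genes. It placed 8 higher in both, against 49.4%, and 13 overlapping.

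**Figure D3:**
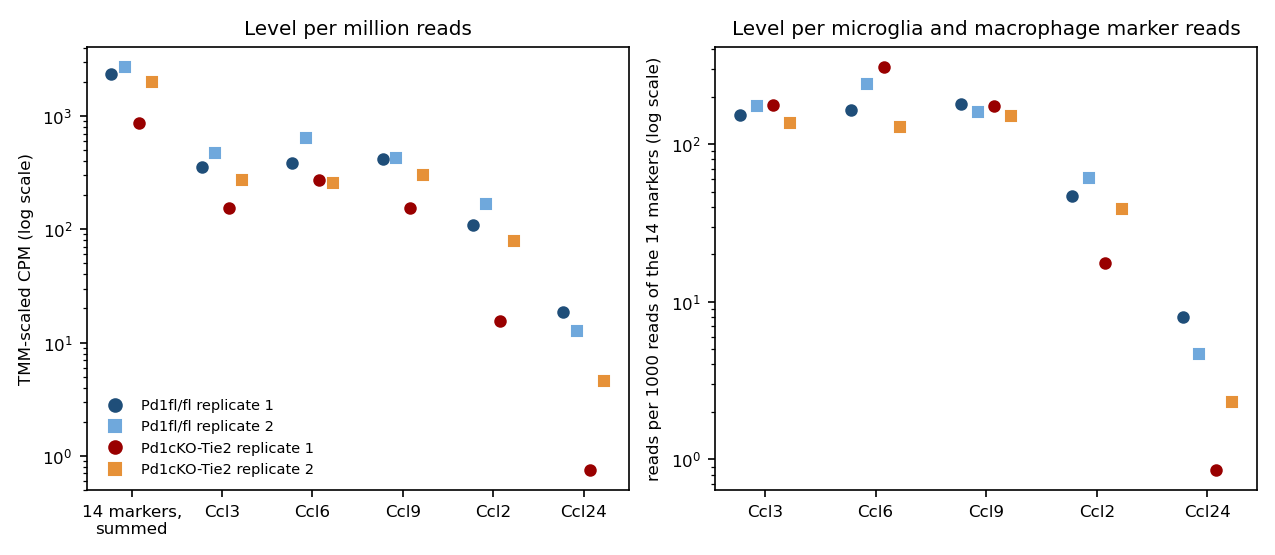
Left, TMM-scaled CPM (log scale) of the 14 summed microglia and macrophage markers and of 5 CC ligands in each library. Right, reads of the same ligands per 1000 reads of those markers (log scale): Ccl3, Ccl6 and Ccl9 overlapped between genotypes, whereas Ccl2 and Ccl24 stayed lower in both Pd1cKO-Tie2 libraries.

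Ccl2 (MCP-1), the main ligand of Ccr2 and a recruiter of monocytes, had 110 and 166 CPM in Pd1fl/fl and 15.4 and 78.2 CPM in Pd1cKO-Tie2. Both control libraries were higher, and Pd1cKO-Tie2 replicate 1 was the lowest by far. The mean was 2.95-fold lower in Pd1cKO-Tie2, with a log2 fold change of −1.57 (SE 0.72), an edgeR p of 0.0751 and adjusted p of 0.852, so Ccl2 did not meet the criterion. The value depended on single libraries, with −3.16 (edgeR p 0.000522) without Pd1cKO-Tie2 replicate 2, −1.83 (0.0365) without Pd1fl/fl replicate 1, −1.23 (0.15) without Pd1fl/fl replicate 2 and −0.81 (0.066) without Pd1cKO-Tie2 replicate 1. On all libraries limma-voom gave −2.21 (p 0.00509) and DESeq2 −1.56 (p 0.142). With other gene filters Ccl2 met the criterion in edgeR. The edgeR p was 0.0211 with no filter beyond 1 count and 0.0228 with at least 10 counts in every library. Per 1000 microglia and macrophage marker reads Ccl2 had 46.9 and 61.4 reads in Pd1fl/fl against 17.5 and 39 in Pd1cKO-Tie2, lower in both. Fitted with that scaling, the log2 fold change of Ccl2 was −0.94 (edgeR p 0.26).

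Ccl7 and Ccl12, the other monocyte chemoattractants tested from the Ccl2 group at chr11:82035571-82103400, showed no common difference between genotypes. Ccl7 had 10.6 and 4.85 CPM in Pd1fl/fl against 0.543 and 11.5 CPM in Pd1cKO-Tie2. Ccl12 had 3.18 and 3.94 CPM against 0.668 and 7.16 CPM. In both genes Pd1cKO-Tie2 replicate 1 was the lowest of the 4 libraries and replicate 2 the highest, so the genotypes overlapped (log2 fold changes −0.36, SE 1.31, and 0.13, SE 1.25). Ccl2 per Ccl12 read was 34.5 and 42.1 in Pd1fl/fl against 23 and 10.9 in Pd1cKO-Tie2, lower in both.

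Ccl4 (MIP-1 beta), a CC ligand that lies beside Ccl3 and is often made with it, had 33.5 and 33.5 CPM in Pd1fl/fl and 19.5 and 43.9 CPM in Pd1cKO-Tie2. The Pd1cKO-Tie2 libraries lay on either side of the controls, and the log2 fold change was −0.08 (SE 0.44). Ccl3 per Ccl4 read was 10.7 and 14 in Pd1fl/fl against 7.9 and 6.19 in Pd1cKO-Tie2, lower in both Pd1cKO-Tie2 libraries. Per 1000 microglia and macrophage marker reads, Ccl4 had 14.3 and 12.4 in Pd1fl/fl against 22.3 and 21.9 in Pd1cKO-Tie2. On that scale Ccl4 was higher in both Pd1cKO-Tie2 libraries, as were 49.4% of all tested genes, whereas its neighbours Ccl3 and Ccl9 overlapped. Fitted with that scaling, the log2 fold change of Ccl4 was 0.72 (edgeR p 0.392). The difference between the genes was not tested.

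**Figure D4:**
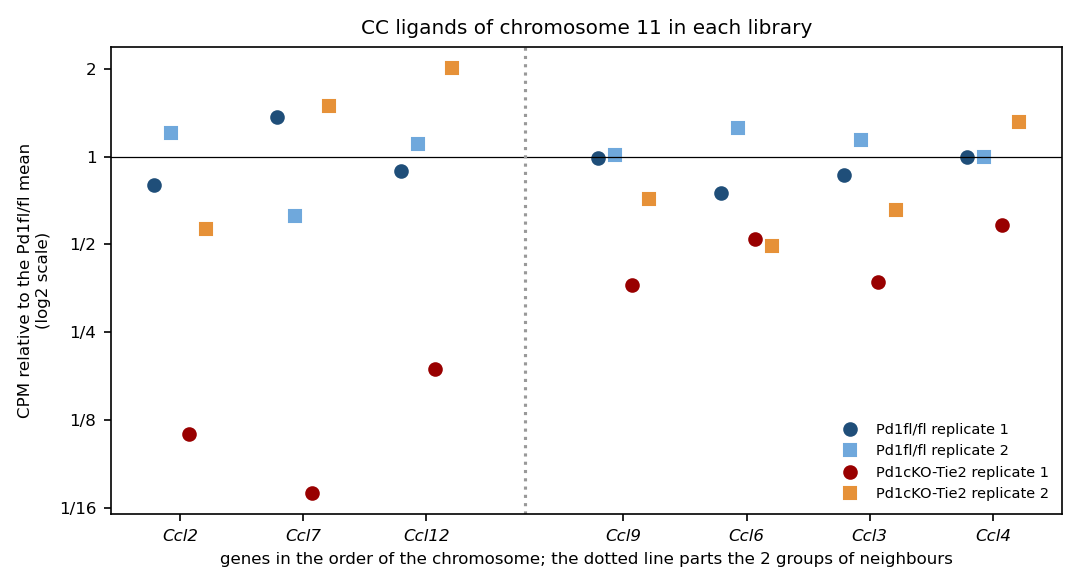
CPM of the tested CC ligands of chromosome 11 relative to the mean of the Pd1fl/fl libraries (log2 scale), in chromosome order, with a dotted line between the Ccl2 group and the Ccl3 group. Pd1cKO-Tie2 replicate 1 was the lowest library for every gene shown except Ccl6, and Pd1cKO-Tie2 replicate 2 lay above the control mean for Ccl7, Ccl12 and Ccl4.

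Ccl24 (eotaxin-2), which attracts eosinophils through Ccr3 and is made by macrophages, fell in Pd1cKO-Tie2. Its counts were 272 and 179 in Pd1fl/fl, against 18 and 63 in Pd1cKO-Tie2, equal to 18.8 and 12.6 CPM against 0.752 and 4.6 CPM. All control values were above all Pd1cKO-Tie2 values, and the mean was 5.86-fold lower. The log2 fold change was −2.57 (SE 0.94), with an edgeR p of 0.0353, an adjusted p of 0.753 and a DESeq2 adjusted p of 0.25. Without Pd1fl/fl replicate 1 the edgeR p was 0.0872 at a log2 fold change of −2.24, and the log2 fold change was −4.37 without Pd1cKO-Tie2 replicate 2 and −1.76 without Pd1cKO-Tie2 replicate 1. Ccl24 was lower per 1000 microglia and macrophage marker reads as well, at 8.05 and 4.66 against 0.858 and 2.3, where the edgeR p was 0.0957. Mrc1, a marker of border macrophages, had 62.5 and 51.6 CPM in Pd1fl/fl and 2.97 and 61.1 CPM in Pd1cKO-Tie2; its part in the Ccl24 difference was not tested. Ccr3, the Ccl24 receptor, had 10 and 27 counts against 3 and 7 and was too low to be tested.

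The neutrophil-attracting ligands Cxcl1 and Cxcl2 bind Cxcr2, the receptor through which neutrophils leave the marrow and enter tissue. Cxcl1 had 8.51 and 2.74 CPM in Pd1fl/fl and 14.8 and 5.34 CPM in Pd1cKO-Tie2, and the genotypes overlapped (log2 fold change 0.84, SE 0.84). Cxcl2 had 6.58 and 9.42 CPM in Pd1fl/fl and 1.88 and 2.92 CPM in Pd1cKO-Tie2. Both Pd1cKO-Tie2 libraries were below both controls, by 3.33-fold on the means, and the log2 fold change of −1.74 (SE 0.76) had an edgeR p of 0.064 and adjusted p of 0.823. Cxcl3 was counted in Pd1cKO-Tie2 replicate 2 alone, with 25 counts, and was not tested. The paralogs Cxcl2 and Cxcl3 share 5.84% of the 50-base windows of Cxcl2, which limits how surely their reads were told apart.

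Cxcr2 was counted 163 and 238 times in Pd1fl/fl, against 0 and 74 times in Pd1cKO-Tie2, or 11.3 and 16.7 CPM against 0 and 5.41 CPM. The receptor was lower in both Pd1cKO-Tie2 libraries, which differed widely from each other. Its log2 fold change of −2.39 (SE 1.78) had an edgeR p of 0.229 and adjusted p of 0.975. The criterion was met without Pd1cKO-Tie2 replicate 2 (edgeR p 0.000443), where the remaining Pd1cKO-Tie2 library is at 0, and with limma-voom (log2 fold change −6.33, p 0.0298), and without Pd1cKO-Tie2 replicate 1 the log2 fold change was −1.36 (edgeR p 0.089). The granule transcripts Ngp and Ltf did not have the same order as Cxcr2. Counts of Ngp were 5950 and 0 in Pd1fl/fl, against 28 and 0 in Pd1cKO-Tie2. Ltf was counted 3132 times, all in Pd1fl/fl replicate 1. Cxcr2 was thus highest in the control library in which Ngp and Ltf were at 0. Other neutrophil markers were counted there, with 1025 counts of Mmp9 and 339 of Mpo. Mmp9 had 157 and 72.1 CPM in Pd1fl/fl against 56.5 and 60.4 CPM in Pd1cKO-Tie2, lower in both. Of the 6 neutrophil markers tested, 1 was lower in both Pd1cKO-Tie2 libraries, against 18.1% of all tested genes, and 5 overlapped. The source of the Cxcr2 reads was not tested.

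The windows of 250 bases before Cxcl3, Cxcl1 and Cxcl2 on the plus strand of chromosome 5 are shown because these neighbours carry the same kappaB letters and yet differed in library order. They lie at chr5:90785851-90786100 for Cxcl3, chr5:90890995-90891244 for Cxcl1 and chr5:90903649-90903898 for Cxcl2 (RefSeq, GRCm38.p6, 5′ to 3′), and capitals mark the same 4 motifs as above.
Cxcl3: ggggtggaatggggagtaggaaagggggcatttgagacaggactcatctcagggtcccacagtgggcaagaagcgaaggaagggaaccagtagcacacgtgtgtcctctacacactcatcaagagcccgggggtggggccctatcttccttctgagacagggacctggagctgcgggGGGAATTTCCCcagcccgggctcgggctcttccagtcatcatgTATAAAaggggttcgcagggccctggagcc
Cxcl1: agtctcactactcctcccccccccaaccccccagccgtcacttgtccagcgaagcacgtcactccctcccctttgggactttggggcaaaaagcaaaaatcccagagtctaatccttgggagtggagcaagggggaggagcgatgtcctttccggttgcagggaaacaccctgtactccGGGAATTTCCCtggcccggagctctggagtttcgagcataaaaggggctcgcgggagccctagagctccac
Cxcl2: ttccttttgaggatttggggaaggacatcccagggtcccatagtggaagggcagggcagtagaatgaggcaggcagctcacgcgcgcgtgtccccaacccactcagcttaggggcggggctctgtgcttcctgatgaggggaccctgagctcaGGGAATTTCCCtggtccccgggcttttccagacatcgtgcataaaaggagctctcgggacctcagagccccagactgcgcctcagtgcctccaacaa
Each window held the run GGGAATTTCCC, in which 2 overlapping kappaB matches on opposite strands were counted, starting 73, 71 and 97 bases before the start of Cxcl3, Cxcl1 and Cxcl2 in that order. Cxcl3 also held a TATA match 30 bases before its start.

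Cxcl12, which retains stem cells and guides vessels and migrating neurons, had the smallest standard error of the 8 most abundant genes. It had 243 and 274 CPM in Pd1fl/fl and 241 and 257 CPM in Pd1cKO-Tie2, with means of 259 ± 21.8 and 249 ± 11.5 CPM (SD, n = 2). The genotypes overlapped and the log2 fold change was −0.05 (SE 0.15), with an edgeR p of 0.739 and adjusted p of 1. Per 1000 endothelial marker reads Cxcl12 had 22.4 and 27.2 in Pd1fl/fl against 18.6 and 18.6 in Pd1cKO-Tie2, lower in both. The share of all genes lower on that scale was not determined. Per 1000 microglia and macrophage marker reads Cxcl12 had 104 and 101 against 275 and 128, higher in both, as were 49.4% of all tested genes. Its share of the reads of the 41 genes was 13.5% and 11.7% in Pd1fl/fl against 23.2% and 16.9% in Pd1cKO-Tie2. Ackr3, the scavenger receptor of Cxcl12, had 2.08 and 4.92 CPM against 3.76 and 4.9 CPM, again overlapping.

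Cx3cl1 (fractalkine), a ligand tethered to the membrane of endothelial cells and neurons, had 41.7 and 72.3 CPM in Pd1fl/fl and 46.4 and 101 CPM in Pd1cKO-Tie2. Replicate 1 was the lower library within each genotype and the genotypes overlapped (log2 fold change 0.37, SE 0.45). The receptor Cx3cr1, a microglial marker, ran from 37.7 and 233 CPM in Pd1fl/fl to 11 and 102 CPM in Pd1cKO-Tie2, with a log2 fold change of −1.26 (SE 1.17) and an edgeR adjusted p of 1. Ligand and receptor were thus both lower in replicate 1 than in replicate 2 of the same genotype. Adam10 and Adam17, the proteases that shed Cx3cl1, had log2 fold changes of 0.10 (SE 0.16) and −0.21 (SE 0.21).

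Atypical receptors were led by Ackr2, which degrades inflammatory CC chemokines. Ackr2 had 23.5 and 52.9 CPM in Pd1fl/fl and 48.2 and 75.3 CPM in Pd1cKO-Tie2, and the genotypes overlapped through the higher control library. Its log2 fold change was 0.69 (SE 0.46), with an edgeR p of 0.181 and adjusted p of 0.949. Without Pd1fl/fl replicate 2 the log2 fold change of Ackr2 was 1.40 (edgeR p 0.0153), which met the criterion, and without Pd1fl/fl replicate 1 it was 0.23 (p 0.582). Ackr1 (DARC), a marker of venules, was split within each genotype, at 112 and 2 counts for Pd1fl/fl against 123 and 0 for Pd1cKO-Tie2. Ackr1 exons share 361 bases on the same strand with Cadm3, which had 121 and 146 counts against 252 and 25, so reads of this overlap match both genes. How the counting treated such reads is not given in the sources used here.

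Among the remaining CXC ligands, Cxcl14, a chemoattractant of monocytes and dendritic cells, had 4.43 and 4.15 CPM in Pd1fl/fl and 3.68 and 4.02 CPM in Pd1cKO-Tie2. Both Pd1cKO-Tie2 libraries were lower by a small margin, with a log2 fold change of −0.16 (SE 0.81). Cxcl16, the membrane-bound ligand of Cxcr6, had 2.7 and 2.95 CPM against 0.209 and 2.56 CPM. The lower mean of Cxcl16 in Pd1cKO-Tie2 thus came mostly from replicate 1 (log2 fold change −1.04, SE 1.48).

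Homeostatic CC ligands were low. Ccl28, a mucosal chemokine that attracts cells through Ccr10 and Ccr3, was counted 30 and 16 times in Pd1fl/fl, against 0 and 0 times in Pd1cKO-Tie2, and met the criterion (edgeR p 0.0206, adjusted p 0.735). Against a limit of 3 counts per Pd1cKO-Tie2 library the level was at least 9.29-fold lower. Ccl25, the thymic and intestinal ligand of Ccr9, had 9.76 and 3.51 CPM in Pd1fl/fl and 9.98 and 6.07 CPM in Pd1cKO-Tie2, and Ccl27a, a skin chemokine, had 5.26 and 4.36 CPM against 5.97 and 2.19 CPM. Both overlapped between genotypes, and Ccl27a shares 45% of its 50-base windows with near-identical copies, among them Ccl27b.

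Ccr7, which guides dendritic cells and naive lymphocytes to lymph nodes, was counted 0 and 0 times in Pd1fl/fl, against 21 and 27 times in Pd1cKO-Tie2. It rose by the criterion, at least 6.81-fold against a limit of 3 counts per control library, with an edgeR p of 0.0267 and an adjusted p of 0.738. Ccr7 entered the test through its Pd1cKO-Tie2 counts alone. Ccr9, the Ccl25 receptor of thymocytes and gut-homing cells, was counted 26 and 50 times in Pd1fl/fl, against 0 and 1 in Pd1cKO-Tie2. Ccr9 fell by the criterion (edgeR p 0.0261, adjusted p 0.735), and the ratio of scaled counts was 99.7, with a 95% counting interval of 17.4 to 3990.5 that covers counting error only. Exons of Ccr9 overlap other genes, Slc6a20a among them, over 269 bases on the same strand and 1954 on the other, and strand use in counting is not given in the sources used here. Markers of lymphocytes summed to 30.3 and 18.3 CPM in Pd1fl/fl and 28.3 and 20.8 CPM in Pd1cKO-Tie2, so the sums overlapped. Of the 8 lymphocyte markers tested, 2 were higher in both Pd1cKO-Tie2 libraries, against 17.7% of all tested genes. In the same list 1 was lower in both, against 18.1%, and 5 overlapped. Which cells carried Ccr7 and Ccr9 was not tested. With Ccl28, these are the genes whose calls rest on the fewest reads: the edgeR p of Ccr7 and Ccl28 exceeded 0.05 without any 1 of the 4 libraries, between 0.131 and 0.284 for Ccr7 and between 0.1 and 0.243 for Ccl28, and that of Ccr9 did so without any 1 but Pd1cKO-Tie2 replicate 2, up to 0.206. With limma-voom the p was 0.119 for Ccr7, 0.0839 for Ccr9 and 0.0795 for Ccl28, and with no filter beyond 1 count the edgeR p of Ccr7 was 0.0549.

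The receptors of the abundant CC ligands did not meet the criterion. Ccr1, the receptor of Ccl3, Ccl6 and Ccl9, had 34 and 30.8 CPM in Pd1fl/fl and 16.7 and 35 CPM in Pd1cKO-Tie2, a log2 fold change of −0.33 (SE 0.42). Ccr2, the Ccl2 receptor of monocytes, had 35.6 and 73.7 CPM against 12.3 and 39.8 CPM, a log2 fold change of −1.08 (SE 0.63) with an edgeR p of 0.143 and adjusted p of 0.928. In both receptors Pd1cKO-Tie2 replicate 1 was the lowest library, and replicate 2 lay within or above the control range. Cxcr6, the Cxcl16 receptor, had 0 and 19 counts against 32 and 0, so the libraries of a genotype differed more from each other than the genotypes did.

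The 14 genes not tested had at most 48 counts in any library. Ccl11 (eotaxin-1) was counted 48 times, all in Pd1fl/fl replicate 1, and Ccr10, the Ccl28 receptor, had 36 counts in Pd1cKO-Tie2 replicate 1 alone. Counts above 0 were found in a single library for 8 of the 14 and in 2 libraries for 4. The interferon-inducible ligand Cxcl10 was counted 13 and 0 times in Pd1fl/fl, against 1 and 0 in Pd1cKO-Tie2. Ccl5, Ccl17, Ccl21a, Cxcl15, Cxcl17, Ccr6, Cxcr3, Ackr4 and the pseudogene Ccl19-ps1 lay between 0 and 36 counts in every library. Ccl11 met the criterion with DESeq2 (log2 fold change −7.36, unadjusted p 0.0418, adjusted p 0.583) on the counts of that single library. At this depth 3 counts equal between 0.125 and 0.219 CPM.

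A list of 37 further genes of chemokine signalling was tested gene by gene, with no test of the list as a set. Most were genes of G protein coupling, desensitization, migration and NF-kappaB signalling. The list also held Cx3cr1, Ccrl2, the ligands Pf4 and Ppbp, and the proteases Adam10, Adam17 and Dpp4. Of the 37 genes 0 rose and 3 fell by the criterion, against 1.41% and 2.61% of all tested genes, and the median log2 fold change was 0.04. Rgs1, which dampens chemokine receptor signalling in leukocytes, had 179 and 357 CPM in Pd1fl/fl and 79.5 and 138 CPM in Pd1cKO-Tie2, a log2 fold change of −1.30 (SE 0.41; edgeR p 0.0201, adjusted p 0.735; DESeq2 adjusted p 0.0218). Vav1, a guanine exchange factor of blood cells, had 49.4 and 51.5 CPM against 11.5 and 23.8 CPM, a log2 fold change of −1.52 (SE 0.41; edgeR p 0.0114, adjusted p 0.735). Prkcd, a protein kinase C isoform, had 35.9 and 31.4 CPM against 12.2 and 18.4 CPM, a log2 fold change of −1.14 (SE 0.36; edgeR p 0.0199, adjusted p 0.735). In all 3 both control libraries were above both Pd1cKO-Tie2 libraries, as they were in the 5 pan-leukocyte markers and in 18.1% of all tested genes. The part of leukocyte content in these differences was not tested.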

How the data were processed

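Per the submitters' processing notes the reads were handled with TopHat2 2.0.12, Bowtie2 2.2.3 and HTSeq 0.6.0 on mm9, whereas 90.1% of the gene positions in the deposited tables, and those of 38 of the 41 genes, equal GENCODE M21 (GRCm38), which was used here for exons. The authors deposited 4 tables, each of 1 Pd1cKO-Tie2 and 1 Pd1fl/fl library, with raw counts of reads per gene, not normalized, and their own fold changes and p-values, which were not used. The CPM columns deposited by the authors served only to recover library totals. Strand use is not given in the sources used here, nor is the gate with which cells stained for CD31 and CD45 were sorted. The tables were joined by gene identifier, 5 broken lines in each of 2 tables were skipped, and genes missing from a library's tables, where they can hold at most 4 counts, were set to 0. The number of one Pd1cKO-Tie2 column is in no label, and the column was used as replicate 2 of its genotype. Of 56 family genes in the role lists, 40 had a row, and the other 16 were not analysed here. The values of 1 tested receptor gene, which did not meet the criterion, are not reported here, although it is included in the counts and medians.

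Counts were tested with edgeR 4.0.16 in R 4.3.3 (quasi-likelihood F test, filterByExpr, TMM, no covariate, 15909 genes, common biological coefficient of variation 0.610). P-values were adjusted by Benjamini-Hochberg across every tested gene, and the F statistic with the fold change gave the standard error. The smallest adjusted p of any gene was 0.735. DESeq2 1.42.0, limma 3.58.1 (voom), other filters and scalings and the omission of each library were the alternatives, and the scripts were tested on simulated data. Full values are given for genes that met the criterion, the 8 most abundant per kilobase, the 5 largest rises and falls among genes whose libraries did not overlap, and genes with 20 counts or more in 1 library and at most 3 in each other; further genes are named to complete a receptor, ligand or neighbour group. The members and all lists were chosen with earlier results of these data known. Only the spread between 2 libraries per genotype sets the precision. Counting intervals and limits cover counting error only.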

Additional observations from a re-analysis of the deposited data

How the results depend on the processing

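The number of chemokine genes that met the criterion was 4, and 7 with limma-voom (Ccl2, Ccl3, Ccl9, Ccl24, Ccr2, Cxcl2 and Cxcr2), all lower, where 3.17% of all genes met it. Omitting single libraries gave 3 to 8, with 8 without Pd1cKO-Tie2 replicate 2 (Ccl2, Ccl3, Ccl7, Ccl9, Ccl24, Ccr2, Ccr9 and Cxcr2, all lower), where 3.82% of all genes met it. Over every fit, the share of all genes ran from 3.17% to 6.72%. The number of chemokine genes was 5 with DESeq2, 6 with library size alone, 3 with at least 10 counts in every library and 4 with the other filters and scalings, including scaling to microglia and macrophage markers, which was chosen after seeing the data and called Cxcl1, Ccr7, Ccr9 and Ccl28. The median log2 fold change of −0.36 was −0.89 with DESeq2, −0.92 with limma-voom, −0.88 with no filter beyond 1 count and −0.78 to −0.22 without each library; DESeq2 and the fit with no filter took in all 41 genes, and the cause for limma-voom was not tested. Scaling to the markers turned the log2 fold change of Ccl6 to 0.11, of Ccl4 to 0.72 and of Cxcl12 to 0.97. Leaving out single libraries turned that of Ccl4 (−0.78 to 0.40, above 0 without Pd1cKO-Tie2 replicate 1), of Cxcl12 (−0.13 to 0.04, with 0.04 without Pd1fl/fl replicate 2 and 0.00 without Pd1cKO-Tie2 replicate 1) and of Cx3cl1 (−0.29 to 0.83, below 0 without Pd1cKO-Tie2 replicate 2). No paired analysis was possible because the labels of the genotypes share the number 1 alone.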
